A study of Rattus norvegicus with 48 samples.

Results

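The let-7 family was followed in small RNA sequencing libraries from the amygdala and ventral striatum of Long Evans rats. The members were the mature 5p let-7 names other than let-7c, together with miR-98-5p, and lines that share a name were added up. This gave 8 of the 612 mature names in the table (1063 names with the precursors): let-7a-5p, let-7b-5p, let-7d-5p, let-7e-5p, let-7f-5p, let-7g-5p, let-7i-5p and miR-98-5p. Each library was made from RNA pooled from 3 rats of one sex, taken on postnatal day 42. Both regions were dissected from the same rats. Dams had received ethanol or saline injections on gestational day 12, and the offspring were housed from weaning on day 21 with littermates (non-enriched) or with unfamiliar rats from untreated dams (socially enriched). The 8 groups were ethanol-exposed or saline-exposed (control) rats, non-enriched or socially enriched, in each of the 2 regions, with 6 libraries in each group, 3 from each sex. All rats, controls included, had also been through a social interaction test. The exposure was by injection on a single gestational day. Since the libraries hold pools, p-values measure the spread between pools and not between single rats.

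The let-7 miRNAs are among the oldest known animal miRNAs. A miRNA is cut from a hairpin precursor, one arm of which is loaded into an Argonaute protein and pairs with messenger RNAs mainly through its seed, the bases near its 5′ end. In vertebrates the family accumulates as cells leave the progenitor state, it represses growth regulators such as Lin28, Hmga2 and Ras genes, and the RNA-binding protein Lin28 in turn blocks the maturation of let-7 precursors. In the mature brain the family is abundant in neurons.

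All 8 members matched entries of the RefSeq table (build GRCr8). Their mature sequences are shown because the members share their seed and differ by few bases elsewhere. Capitals mark the seed, bases 2 to 8.
let-7a-5p: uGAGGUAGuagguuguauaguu
let-7b-5p: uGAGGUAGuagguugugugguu
let-7d-5p: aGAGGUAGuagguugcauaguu
let-7e-5p: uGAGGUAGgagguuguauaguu
let-7f-5p: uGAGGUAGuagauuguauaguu
let-7g-5p: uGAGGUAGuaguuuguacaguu
let-7i-5p: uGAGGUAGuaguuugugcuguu
miR-98-5p: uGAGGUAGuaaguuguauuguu
let-7c-5p: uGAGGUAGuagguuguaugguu
All 8 members are 22 bases long and carry the same seed, and 9 of the 693 rat mature names listed by RefSeq carry it, the last of them being let-7c-5p, printed for comparison. Counted from 1 at the 5′ end, let-7e-5p differs from let-7a-5p by U9G only, and let-7f-5p by G12A only. let-7d-5p is the only member that does not start with U (U1A), and it also has U16C. let-7b-5p has A17G and A19G, and let-7c-5p shares only A19G, so that let-7b-5p and let-7c-5p differ by 1 base. let-7g-5p has G12U and U18C, miR-98-5p has G11A and A19U, and let-7i-5p is the most different, with G12U, A17G, U18C and A19U.

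The genes lie in several clusters. let-7a-1 (mature sequence at chr17:16320145-16320166), a let-7f gene that RefSeq names Mirlet7f-1os (chr17:16320508-16320529) and let-7d (chr17:16322273-16322294) lie within 10000 bases of each other on the plus strand. RefSeq places the name Mirlet7f-1 on the minus strand opposite Mirlet7f-1os. let-7f-2 (chrX:24460052-24460073) and miR-98 (chrX:24460663-24460684) are neighbours on the plus strand, with 603 bases between the starts of their genes. let-7b (chr7:118684044-118684065) lies next to a let-7c gene, let-7c-2 (chr7:118683636-118683657). let-7e (chr1:67350243-67350264) sits between miR-99b and miR-125a, and let-7a-2 (chr8:50805219-50805240) shares its stretch of chromosome with miR-100. let-7g (chr8:115701026-115701047) and let-7i (chr7:60527935-60527956, minus strand) had no miRNA neighbour within 10000 bases in the table. let-7a-5p and let-7f-5p each come from 2 genes with the same mature sequence and so have 2 lines in the deposited table, which were added up.

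Every member was detected in all 48 libraries. The mature lines of a library added up to 363141 to 1370410 reads, as read from the value that 1 read is worth, and the least abundant member had at least 689 reads in every library. The libraries of each region were clustered into 3 sets by how the reads of repeated names were divided between their lines. The number 3 was given to the clustering and not found by it, and each set came to 8 libraries. The share of let-7f-5p on its first line was 26.5 to 27.5% in amygdala set 1, 36.9 to 38.5% in set 2 and 24.7 to 25.7% in set 3, and in the ventral striatum 26.6 to 27.0%, 37.6 to 38.4% and 32.3 to 33.3%. Each set held 1 library of each of the 8 combinations of sex, prenatal treatment and housing, so the groups of a region were balanced over the sets. Of the 48 libraries, 47 were placed in the same set without the let-7 names. The labels do not name these sets.

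The family was abundant, and the order of its members was the same in both regions. Levels are given in RPM, the deposited unit, in which the mature lines of each library added up to between 999999 and 1000001. Added up, the 8 members took 5.62 to 7.06% (median 6.41%) of the mature reads in the amygdala and 5.31 to 8.88% (median 6.31%) in the ventral striatum. let-7f-5p was the most abundant member and ranked 12 among mature names, with 21843 ± 1497 RPM (SD, n = 24) in the amygdala and 21794 ± 3281 RPM in the ventral striatum. It made up 34.6% and 33.9% of the family reads on average. let-7g-5p followed with 11996 ± 1342 and 12303 ± 1367 RPM, and let-7i-5p with 11481 ± 848 and 11825 ± 993 RPM. These neighbours in the order overlapped, since let-7g-5p was above let-7i-5p in 17 of 24 amygdala libraries and in 14 of 24 ventral striatum libraries.

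The less abundant members also kept their order. let-7a-5p stood at 7134 ± 543 RPM in the amygdala and 7472 ± 1238 RPM in the ventral striatum. miR-98-5p stood at 3483 ± 323 and 3453 ± 311 RPM, and let-7e-5p at 3253 ± 324 and 3227 ± 309 RPM. miR-98-5p was above let-7e-5p in 19 of 24 libraries of each region, so these neighbours also overlapped. let-7d-5p (2016 ± 151 and 2209 ± 285 RPM) and let-7b-5p (1929 ± 358 and 1860 ± 358 RPM) closed the order. let-7d-5p was above let-7b-5p in 18 of 24 amygdala libraries and in 21 of 24 ventral striatum libraries. Every other step in the order, from let-7f-5p to let-7g-5p, let-7i-5p to let-7a-5p, let-7a-5p to miR-98-5p and let-7e-5p to let-7d-5p, held in 24 of 24 libraries of both regions. Adapter ligation is known to differ between small RNA sequences, so levels of different members are shares of reads and not molar amounts. Its part in the order was not tested.

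**Figure D1:**
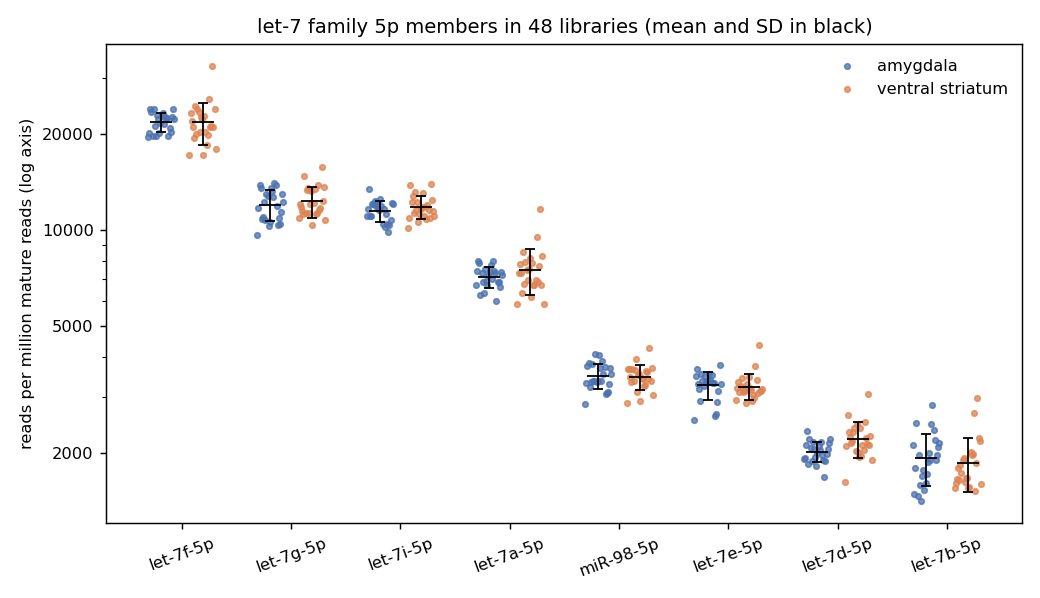
Level of each member in every library (RPM, log axis), with amygdala libraries in blue and ventral striatum libraries in orange; black bars give mean and SD (n = 24). let-7f-5p lies highest in both regions (lowest library 17147 RPM), and let-7d-5p and let-7b-5p lie lowest.

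let-7a-5p shares its values in part with a name on the opposite strand. miR-3596a is a rat name annotated on the strand opposite let-7a-2, and its sequence is the exact reverse complement of let-7a-5p. Its value equalled that of the second let-7a-5p line in 48 of 48 libraries (lowest 1268, median 1674, highest 2162 RPM). The let-7a-2 hairpin line was 1.76 to 1.83 times the second let-7a-5p line, and 0.880 to 0.916 times that line and miR-3596a together. Adding miR-3596a would raise the mean of let-7a-5p over 48 libraries from 7303 to 8984 RPM, since miR-3596a amounted to 18.6 to 27.0% of let-7a-5p. let-7d showed the same kind of division among its precursor lines. The let-7d hairpin line held 17.9% of the sum of the let-7d and mir-3596b hairpin lines in every library, where mir-3596b is annotated opposite let-7d, and the sum was 1.01 to 1.12 times let-7d-5p. Reads of a member and of the name on the opposite strand cannot be told apart in this table.

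The 5p arm made up nearly all reads of each hairpin, with let-7d as the exception. The 3p arm of let-7d took 15.002% of the reads of both arms at the median (11.3 to 20.04%), at 254 to 636 RPM. For let-7b the 3p share was 1.46% (0.571 to 2.48%), and for let-7e 0.407%. For let-7a, let-7f, let-7g and let-7i the median share was 0.142%, 0.0102%, 0.0327% and 0.0957%. miR-98-3p did not pass 3 reads in any of the 48 libraries.

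The comparison of the regions asked whether the amygdala and the ventral striatum differ in their let-7 content. Of the 8 members, 1 passed the test. let-7d-5p, the member with the atypical first base, was lower in the amygdala. Its lowest, median and highest values were 1681, 2021 and 2346 RPM in the amygdala and 1613, 2159 and 3058 RPM in the ventral striatum. The ranges overlapped, but 20 of 24 amygdala libraries lay below the median of the ventral striatum. For let-7e-5p, which did not pass, 18 of 24 amygdala libraries lay above the ventral striatum median. The log2 difference of let-7d-5p, amygdala minus ventral striatum, was -0.12 ± 0.04 (SE; adjusted p = 0.018, limma), and the permutation p for the member alone was 0.00466 (100000 resamples, two-sided). Both tests took the regions as separate samples, although they came from the same rats, and the permutation also left out sex and treatment. Over all names 28.5% passed the same threshold and 39% passed at unadjusted p < 0.05, beside 1 of the 8 members. Whether that share differs from the background was not tested.

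As deposited, the other 7 members lay close to 0 on the log2 scale of difference. let-7a-5p differed by -0.05 ± 0.05, let-7b-5p by 0.05 ± 0.07, let-7e-5p by 0.01 ± 0.04, let-7f-5p by 0.01 ± 0.05, let-7g-5p by -0.04 ± 0.05, let-7i-5p by -0.04 ± 0.03 and miR-98-5p by 0.01 ± 0.04 (SE), with adjusted p from 0.327 to 0.896 (limma). The difference for let-7d-5p did not pass under 2 other settings. After median-ratio rescaling, which sets the median library ratio over names to a common value, it was -0.06 (adjusted p = 0.256, limma). That rescaling also turned the sign of let-7a-5p, let-7g-5p and let-7i-5p. let-7d-5p was then no longer farthest from 0, since let-7b-5p stood at 0.12, let-7f-5p at 0.08 and let-7e-5p at 0.08. Their adjusted p ran from 0.061 to 0.245 (limma). The unadjusted p was 0.0159 for let-7e-5p and 0.119 for let-7d-5p (limma). With the library sets as a random block, a fit chosen after the data were seen, the let-7d-5p difference kept its size and its adjusted p was 0.0737 (limma). The sets lie within regions: the let-7d-5p means of the amygdala sets were 1938, 2058 and 2051 RPM and those of the ventral striatum sets 2091, 2197 and 2341 RPM. These groups of set means did not overlap, and the exact permutation p was 0.1, the smallest that 3 against 3 allows. Between libraries of consecutive numbers, which share sex, treatment and set number, let-7d-5p was lower in the amygdala in 18 of 24 pairs. With these pairs as a random block its adjusted p was 0.014 (limma). Members that did not pass gave similar pair counts, since let-7e-5p was higher in 17 of 24 and let-7g-5p lower in 16 of 24.

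**Figure D2:**
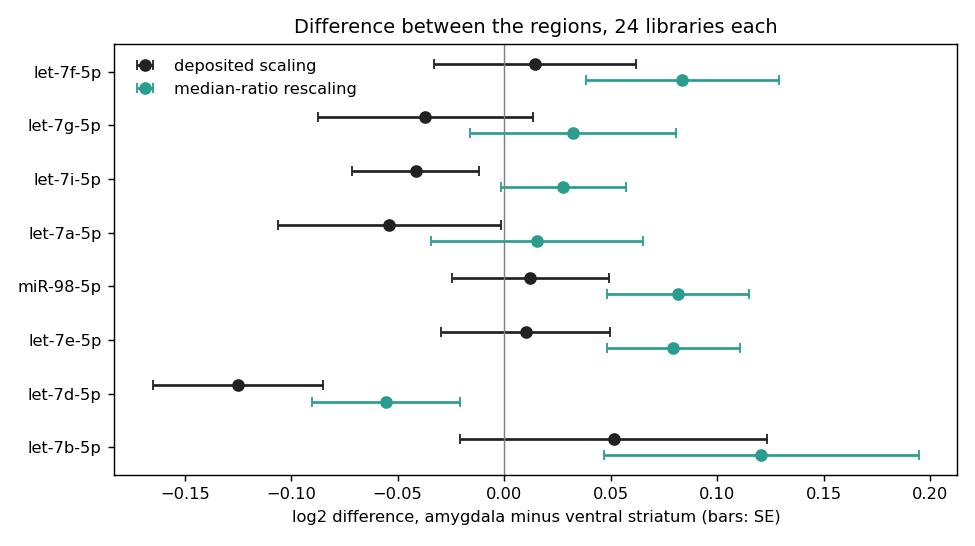
Log2 difference between amygdala and ventral striatum for each member with its SE (24 libraries each), as deposited (black) and after median-ratio rescaling (green). let-7d-5p is farthest from 0 as deposited, at -0.12, and moves to -0.06 after rescaling, where let-7b-5p lies at 0.12.

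The hairpin line and the opposite arm of let-7d were also lower in the amygdala, but the hairpin line is not a separate measurement. It was 0.156 to 0.162 times the reads of both mature arms of let-7d in every library, so it follows them. The let-7d hairpin line differed by -0.12 ± 0.04 (adjusted p = 0.0163, limma) and let-7d-3p by -0.20 ± 0.06 (SE; adjusted p = 0.0163, limma), both lower in the amygdala. Among the 9 precursor lines listed, which leave out the let-7g hairpin, 1 was lower and 0 were higher at adjusted p. Among the 9 opposite arms, which leave out let-7g-3p, 2 were lower and 0 higher, the second being let-7b-3p (-0.42 ± 0.13, adjusted p = 0.0163, limma), whose levels were only 10.7 to 38.7 RPM. The cluster partners of the family, miRNAs of the miR-99/100 and miR-125 families whose genes lie near let-7 genes, gave 2 of 5 higher in the amygdala. Beside all 3 lists stands the 28.5% of all names that passed in either direction. The let-7g hairpin differed by -0.03 ± 0.05 and let-7g-3p by 0.05 ± 0.25 (SE; adjusted p = 0.758 and 0.916, limma). miR-99a-5p stood at 3154 ± 639 RPM in the amygdala and 2105 ± 217 RPM in the ventral striatum (SD, n = 24; log2 difference 0.56 ± 0.07, SE; adjusted p = 4.04e-07, limma). miR-100-5p stood at 4431 ± 1104 and 3330 ± 589 RPM (log2 difference 0.39 ± 0.10, adjusted p = 0.00459, limma). let-7c-5p, outside the members, was higher in the amygdala by 0.19 ± 0.07 (adjusted p = 0.0411, limma).

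Cell type marker lists are given by region as levels, with no test between the regions, and their part in the let-7d-5p difference was not tested. The choroid plexus list (3 of 3 names found, among them miR-204-5p) added up to 3127 to 122693 RPM in the amygdala and 3842 to 6998 RPM in the ventral striatum. The oligodendrocyte list (3 of 3) added up to 4671 to 15452 RPM in the amygdala (median 7089) and 6218 to 15920 RPM in the ventral striatum (median 10324). The neuronal list (2 of 2) had medians of 8439 and 6576 RPM, the vessel list (3 of 3) 30774 and 30065 RPM, the microglia and leukocyte list (3 of 3) 242 and 215 RPM and the red blood cell list (2 of 2) 22.1 and 19.8 RPM. In bulk tissue, fewer cells of a type and less RNA per cell cannot be told apart.

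Ethanol effects were examined first in the amygdala. Within the regions no member passed at adjusted p in any of the 16 comparisons, and neither did any other name (0% by limma). Over all 19 comparisons, 9 of the 152 pairs of a member and a comparison were at unadjusted p < 0.05 by limma, and 9 by an ordinary linear model on unlogged values, of which 8 were shared. The 9 pairs were 5.92% of member pairs, and over all names 5.19% of tests were at unadjusted p < 0.05. Without the region comparison the shares were 5.56% (8 of 144) and 3.23%. Member pairs are not independent, and the difference between these shares was not tested. In the amygdala let-7b-5p was the only member at unadjusted p < 0.05 in S(EvC), ethanol against control among socially enriched rats. Its lowest, median and highest values were 1528, 2220 and 2817 RPM in the 6 ethanol-exposed libraries and 1465, 1659 and 2002 RPM in the 6 control libraries. The groups overlapped, and 4 of 6 ethanol-exposed libraries lay above every control library. The log2 difference was 0.35 ± 0.13 (SE; adjusted p = 0.878, limma), and the exact permutation p, which is not adjusted, was 0.0433 (two-sided). At unadjusted p, 1 of 8 members was called against 3.85% of all names. The let-7b hairpin line gave 0.31 with an adjusted p of 0.88. It was 0.971 to 1.08 times both mature arms of let-7b together, so it is not a separate measurement.

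let-7b-5p did not pass at adjusted p in any other ethanol contrast either. With the housings pooled, let-7b-5p in the amygdala stood at 2076 ± 382 RPM in ethanol-exposed and 1782 ± 273 RPM in control libraries (SD, n = 12; log2 difference 0.21 ± 0.09, adjusted p = 0.848, limma; background at unadjusted p 4.4%). Within the library sets, let-7b-5p was higher in the ethanol-exposed library in 10 of 12 pairs of the same sex, housing and set in each region. The regions come from the same rats. Members not at unadjusted p < 0.05 gave similar counts. let-7g-5p was lower in 10 of 12 amygdala pairs, and let-7e-5p in 9 of 12 pairs of each region. In the ventral striatum the log2 difference of let-7b-5p with the housings pooled was 0.19, and no member was at unadjusted p < 0.05 (background 3.22%). Without replicate M2 of the socially enriched, ethanol-exposed group the amygdala differences were 0.27 in S(EvC) (unadjusted p = 0.0634, limma model over all names) and 0.17 with housings pooled (unadjusted p = 0.0806). With housings pooled, 10 of the 24 fits that left out 1 library stayed at unadjusted p < 0.05. With the sets as a fixed block, a fit chosen after the data were seen, the pooled difference was 0.21 as before (adjusted p = 0.45, limma). In the amygdala let-7c-5p, which differs from let-7b-5p by 1 base and lies beside it in the genome, gave 0.46 in S(EvC) (adjusted p = 0.678) and 0.32 with the housings pooled (adjusted p = 0.548). With the housings pooled, the choroid plexus list had a median of 19916 RPM in ethanol-exposed (3529 to 122693) and 8370 RPM in control libraries (3127 to 32028). The other medians, ethanol-exposed and control, were 8211 and 8507 RPM for neurons, 6364 and 7442 RPM for oligodendrocytes, 29383 and 33057 RPM for vessels, 226 and 246 RPM for microglia and leukocytes, and 25.1 and 20.2 RPM for red blood cells. Their part in the let-7b-5p values was not tested.

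**Figure D3:**
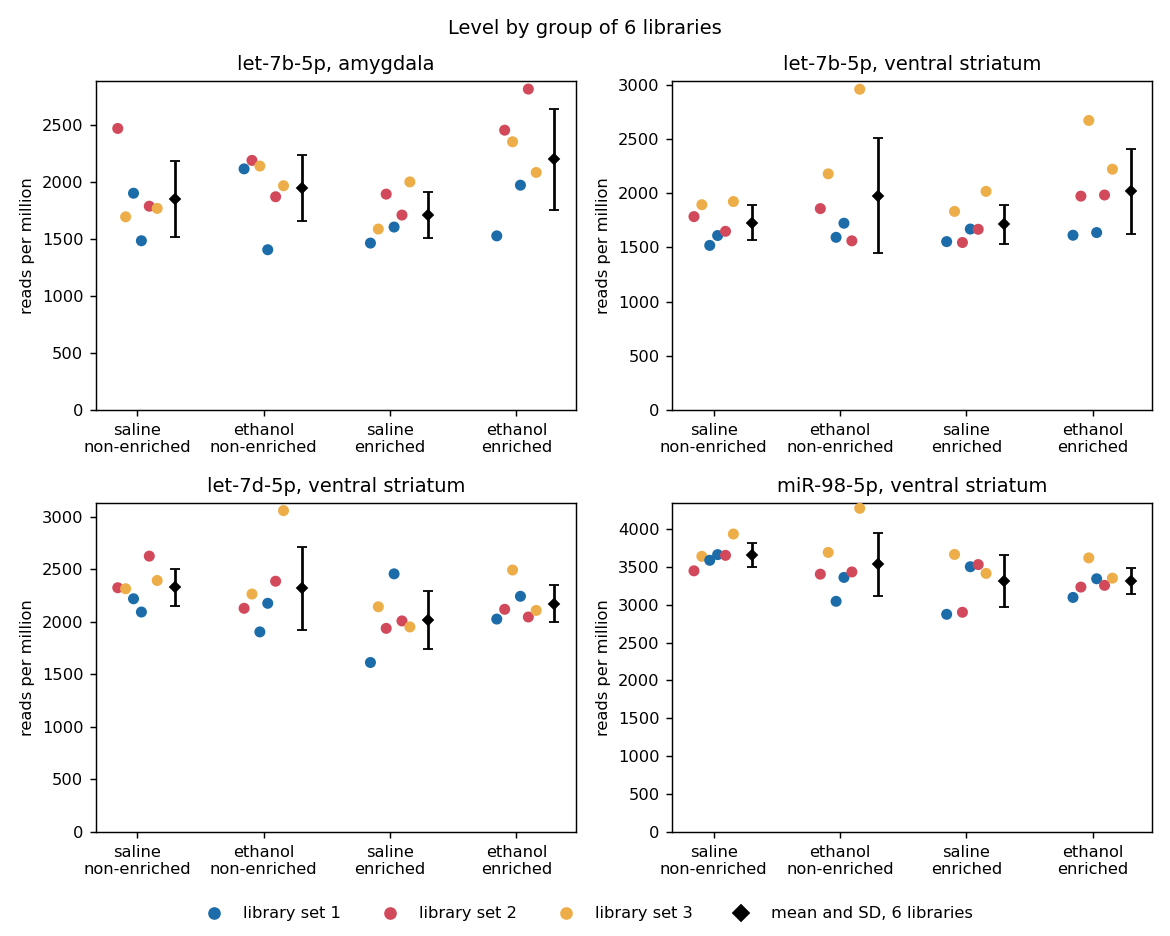
Values of let-7b-5p, let-7d-5p and miR-98-5p by group of 6 libraries (RPM), coloured by library set; diamonds and bars give mean and SD. In the amygdala, 4 of the 6 socially enriched ethanol-exposed libraries lie above every socially enriched control library for let-7b-5p, while the non-enriched groups overlap.

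The ethanol contrasts within each housing gave the members these ranges. In the amygdala N(EvC), ethanol against control among non-enriched rats, the log2 differences of the 8 members ran from -0.14 to 0.08 (median -0.08), with 7 below 0, and the median over all names was also -0.08. No member reached unadjusted p < 0.05 there, against 4.51% of all names. In this contrast the choroid plexus list had a median of 26290 RPM in ethanol-exposed (3529 to 122693) and 7633 RPM in control libraries (3127 to 30709), and its part in the members' values was not tested. In S(EvC) of the amygdala the members other than let-7b-5p ran from -0.09 to 0.03, and 6 of them were below 0. In the ventral striatum N(EvC) ran from -0.05 to 0.16 (median 0.03) and S(EvC) from -0.06 to 0.22 (median 0.01), the highest value being let-7b-5p in both. No member reached unadjusted p < 0.05 in either, against 2.04% and 2.25% of all names.

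Social enrichment differences of the members in the ventral striatum were mostly negative without passing the test. Their signs are not independent, since the members varied together in this region (r above 0 in 28 of 28 pairs). The share of all names below 0 is not given here. In C(SvN), socially enriched against non-enriched control rats, 7 of 8 members were below 0 and let-7d-5p was at unadjusted p < 0.05. miR-98-5p lay just outside that threshold, at -0.15 ± 0.07 (SE; unadjusted p = 0.0508, limma). The study, by its own ANOVA of the RNA-Seq values without adjustment, listed miR-98-5p as lower in this contrast. let-7d-5p had a lowest, median and highest value of 1613, 1980 and 2456 RPM in socially enriched and 2093, 2319 and 2625 RPM in non-enriched control libraries. Of the 6 socially enriched libraries, 5 lay below the median of the non-enriched ones, and 1, replicate M1, lay above it. The log2 difference was -0.21 ± 0.09 (SE; adjusted p = 1, limma), and the exact permutation p, not adjusted, was 0.039 (two-sided). At unadjusted p, 1 of 8 members was called against 3.86% of all names. Without replicate F1 of the socially enriched control group the difference was -0.16 (unadjusted p = 0.108, limma model over all names), and on unlogged values no member was at unadjusted p < 0.05. With the replicate number as a block the unadjusted p of let-7d-5p was 0.0512. The marker medians, socially enriched and non-enriched, were 5044 and 5582 RPM for the choroid plexus, 9857 and 10234 RPM for oligodendrocytes, 6650 and 6564 RPM for neurons, 32384 and 27779 RPM for vessels, 223 and 211 RPM for microglia and leukocytes, and 25.3 and 19.3 RPM for red blood cells. Their part in the let-7d-5p values was not tested.

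With the prenatal groups pooled, 2 members were at unadjusted p < 0.05 in the ventral striatum, against 4.39% of all names. let-7d-5p stood at 2095 ± 235 RPM in socially enriched and 2324 ± 293 RPM in non-enriched libraries (SD, n = 12), a log2 difference of -0.15 ± 0.07 (SE). miR-98-5p, which shares a cluster with let-7f-2, stood at 3313 ± 258 and 3592 ± 307 RPM, a log2 difference of -0.12 ± 0.05. The adjusted p was 1 for both (limma). Of the 24 fits that left out 1 library, 10 kept let-7d-5p and 18 kept miR-98-5p at unadjusted p < 0.05. With the replicate number as a block the unadjusted p was 0.0557 for let-7d-5p and 0.0252 for miR-98-5p. miR-98-5p was lower in the socially enriched library in 10 of 12 pairs of the same sex, prenatal treatment and set, and let-7d-5p in 8 of 12. let-7i-5p, not at unadjusted p < 0.05 here, was lower in 9 of 12. Marker medians, socially enriched and non-enriched, were 11493 and 10212 RPM for oligodendrocytes, 6519 and 6576 RPM for neurons, and 5614 and 5835 RPM for the choroid plexus. They were 31139 and 29661 RPM for vessels, 216 and 215 RPM for microglia and leukocytes, and 19.5 and 20.8 RPM for red blood cells. Their part in the values of let-7d-5p and miR-98-5p was not tested. In E(SvN), socially enriched against non-enriched ethanol-exposed rats, the members ran from -0.14 to 0.04 (median -0.08) with none at unadjusted p < 0.05 (background 1.82%). Replicate M3 of the non-enriched, ethanol-exposed group of the ventral striatum stood apart, with 88814 RPM for the 8 members added up against 53120 to 73695 RPM in the other libraries of the region, and it was the highest library for 8 of 8 members.

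In the amygdala enrichment differences were small. C(SvN) ran from -0.10 to 0.02 and E(SvN) from -0.03 to 0.17, with none of the 8 members at unadjusted p < 0.05 (background 2.64% in each), and with the prenatal groups pooled the members ran from -0.05 to 0.04 (background 3.08%). The interaction of ethanol with enrichment ran from 0.02 to 0.27 in the amygdala (background 3.85%) and from -0.09 to 0.13 in the ventral striatum (background 2.57%), with no member at unadjusted p < 0.05. Whether effects differ between the regions was tested directly. In region by enrichment, miR-98-5p was at unadjusted p < 0.05, with a log2 difference of 0.16 ± 0.07 (SE; adjusted p = 1, limma; background 2.48%). It was no longer at unadjusted p < 0.05 after median-ratio rescaling (0.10, unadjusted p = 0.129) or among names of mean at least 10 (unadjusted p = 0.0596), and 22 of the 48 fits that left out 1 library kept it there. In region by ethanol no member was, against 3.51% of all names at unadjusted p and 0.207% at adjusted p.

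Between the sexes, no member passed at adjusted p in either region. In the amygdala let-7e-5p was lower in females, at 3112 ± 354 against 3395 ± 225 RPM (SD, n = 12; log2 difference -0.13 ± 0.05, SE; adjusted p = 0.988, limma), 1 of 8 members at unadjusted p < 0.05 against 4.18% of all names. Marker medians in females and males were 8166 and 18227 RPM for the choroid plexus, 8232 and 6211 RPM for oligodendrocytes, 7857 and 8507 RPM for neurons, 30970 and 30774 RPM for vessels, 242 and 251 RPM for microglia and leukocytes, and 16.9 and 28.5 RPM for red blood cells. Their part in the let-7e-5p values was not tested. In the ventral striatum 8 of 8 members were below 0, and let-7i-5p was at unadjusted p < 0.05 against 2.89% of all names. The 8 signs are not independent, since the members varied together. let-7i-5p stood at 11378 ± 600 RPM in females and 12272 ± 1124 RPM in males, and 12 of 12 female libraries lay below the median of the males (log2 difference -0.11 ± 0.04, SE; adjusted p = 1, limma).

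Members also differed in level between the library sets. With the set added to the model of the 8 cells of sex and treatment, 2 of 8 members passed at adjusted p in the amygdala (9.78% of all names did) and 3 of 8 in the ventral striatum (12.9%; limma). let-7g-5p passed in both (adjusted p = 0.00336 and 0.000998), with set means of 10662, 13116 and 12210 RPM in the amygdala and 11408, 11651 and 13851 RPM in the ventral striatum. let-7b-5p also passed in both (adjusted p = 0.0358 and 0.00198), and miR-98-5p in the ventral striatum (adjusted p = 0.0421). Amygdala set 2 was also the shallowest, at 363141 to 622111 mature reads. Set 1 of the amygdala had at least 669366 and set 3 at least 892116, while the depths of the ventral striatum sets overlapped. The part of depth in the set differences was not tested. let-7i-5p stayed at 11493, 11461 and 11490 RPM in the amygdala sets (adjusted p = 1) and at 11431, 12037 and 12008 RPM in the ventral striatum sets (adjusted p = 0.49).

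**Figure D4:**
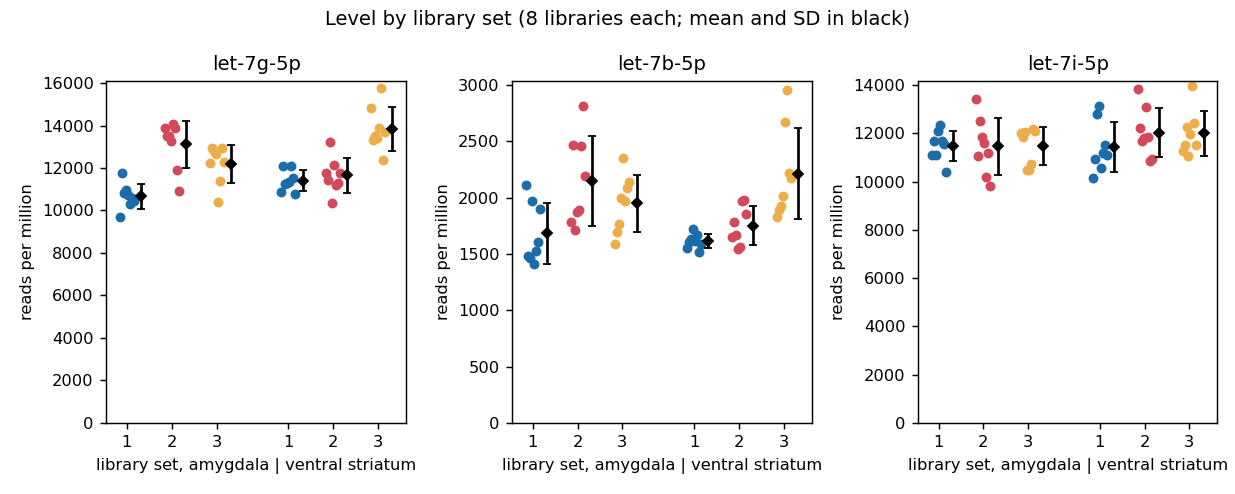
Level of let-7g-5p, let-7b-5p and let-7i-5p (RPM) in the 3 library sets of each region, 8 libraries per set, with mean and SD. let-7g-5p is lowest in set 1 of both regions, while the 3 amygdala sets of let-7i-5p have means from 11461 to 11493.

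Most members varied together from library to library, and let-7i-5p and, in the amygdala, let-7b-5p stood apart from the rest. After the mean of each cell of sex and treatment was taken away, the Pearson r of log2 values over 24 libraries was above 0 in 26 of 28 pairs of members in the amygdala (median 0.56) and in 28 of 28 in the ventral striatum (median 0.75). The highest values were 0.84 for let-7f-5p with let-7g-5p in the amygdala and 0.96 for let-7a-5p with let-7f-5p in the ventral striatum. let-7b-5p followed let-7c-5p (0.96 in the amygdala, 0.91 in the ventral striatum), and in the amygdala it went against let-7i-5p (-0.45). These libraries share the scaling to a fixed total and the library sets. The members also have nearly the same sequence. let-7b-5p and let-7c-5p differ by 1 of 22 bases, as do let-7a-5p and let-7f-5p. The part of this likeness in the r values was not tested. With the set means also taken away, 21 of 28 amygdala pairs and 27 of 28 ventral striatum pairs remained above 0.

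**Figure D5:**
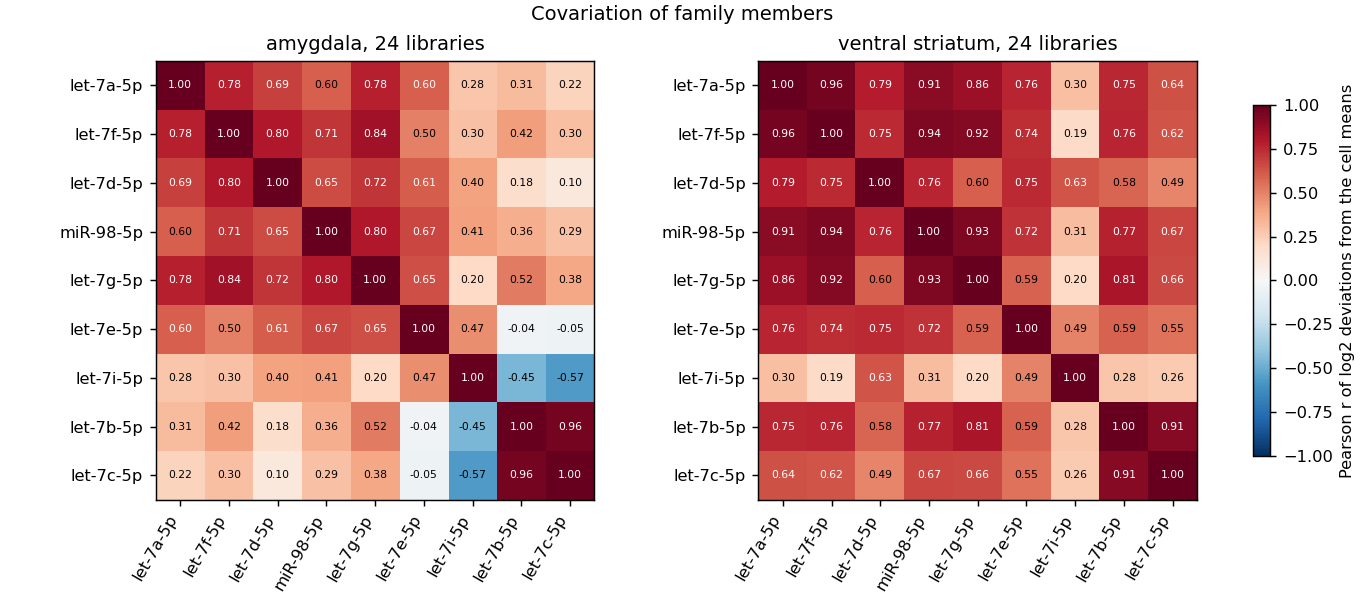
Pearson r between members, and let-7c-5p for comparison, over the 24 libraries of a region, computed on log2 deviations from the means of the cells of sex and treatment. let-7b-5p and let-7c-5p form a pair (0.96 and 0.91), and let-7i-5p has the lowest value of the amygdala with let-7b-5p among members (-0.45).

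The members also differed in how they varied with the marker lists, given here as a description. In the amygdala let-7i-5p and let-7e-5p were lower where the choroid plexus list was higher (r = -0.75 and -0.74 over 24 libraries), while let-7b-5p had r = 0.34. All values are scaled to a fixed total. Of that total the list reached 122693 RPM in females (median 8166) and 108194 RPM in males (median 18227). The part of the scaling and of the highest libraries in these r values was not tested. In the amygdala let-7b-5p had its highest r with the red blood cell list (0.45) and its lowest with the vessel list (-0.36). With the neuronal list, let-7e-5p had r = 0.79 and let-7g-5p 0.71 in the amygdala, and let-7a-5p 0.87 and let-7f-5p 0.81 in the ventral striatum, whereas let-7i-5p had 0.11 and 0.01. let-7i-5p went with the vessel list in the amygdala (r = 0.73). In the S(EvC) comparison of the amygdala the choroid plexus list had medians of 14672 RPM in ethanol-exposed and 13424 RPM in control libraries, and the vessel list 28598 and 33245 RPM. The other medians were 9266 and 7681 RPM for neurons, 6193 and 8702 RPM for oligodendrocytes, 209 and 237 RPM for microglia and leukocytes, and 25.1 and 18.7 RPM for red blood cells. Their part in the let-7b-5p values was not tested. The names whose levels were most like the 8 members added up were miR-379-5p (r = 0.75), miR-146b-5p (0.74) and miR-1843b-5p (0.74) among 287 amygdala names, and miR-139-5p (0.88), miR-128-3p (0.78) and miR-148a-3p (0.77) among 297 ventral striatum names, each over 24 libraries.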

How the data were processed

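Small RNA libraries (TruSeq) were multiplexed in sets of 8 and sequenced as single ends (MiSeq). The authors trimmed and aligned the reads with Bowtie in Partek Flow to Rn5, and quantified them against miRBase mature and precursor names. The deposited values are called RPM, but mature and precursor lines each add up to 999999 to 1000001 per library, so they were handled as signal. Reads of repeated names are divided into fractions (of values up to 30 reads, 92.7 to 99.6% per library lay within 0.02 of a whole read), so no count test was run.

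Names above 0 in at least 6 libraries were tested with limma 3.58.1 (R 4.3.3, moderated with a trend) on log2(value + 1), so folds are on that scale, with 8 cells of sex, prenatal treatment and housing per region (16 over both) and Benjamini-Hochberg adjustment over all names. The code was tested on simulated data. Single members were tested by permutation (scipy 1.17.1). All members are named; full statistics are given for the region comparison and for pairs at unadjusted p < 0.05. A list supplied with the rule held 7 members; let-7g-5p also meets the rule. Members and lists were chosen with earlier results of these data known. Library sets were found by Ward clustering of line shares (19 names of mean at least 1000). Alternatives changed pseudocount, filter, scaling, blocks and libraries.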

Additional observations from a re-analysis of the deposited data

Results flagged for a closer look

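In 64 combinations of a member and a group of 6 libraries, 3 had a library farther from the others than Dixon's 95% critical value for 6 libraries allows, where chance alone gives about 1 in 20. In the socially enriched, ethanol-exposed ventral striatum, replicate F3 had 9487 RPM of let-7a-5p against 6341 to 6966 RPM in the other 5 libraries, and 25817 RPM of let-7f-5p against 18471 to 21068 RPM. In the non-enriched, ethanol-exposed ventral striatum, replicate M3 had 4351 RPM of let-7e-5p against 3075 to 3169 RPM. No interaction of a member passed at adjusted p.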

How the results depend on the processing

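The count of members at adjusted p < 0.05 between the regions fell from 1 to 0 after median-ratio rescaling and, in a fit chosen after the data were examined, with the library sets as a random block; the cause was not tested. let-7d-5p was called in the other planned settings and without each of the 48 libraries, its log2 difference then running from -0.14 to -0.11. In the other 18 comparisons the count was 0 under every alternative run for each. Median-ratio rescaling reversed the region difference of let-7a-5p (0.0153), let-7g-5p (0.0323) and let-7i-5p (0.0277). Leaving out single libraries reversed let-7e-5p (values from -0.00438 to 0.0300) and let-7f-5p (from -0.00443 to 0.0399). Adding miR-3596a moved the region difference of let-7a-5p to -0.03.

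With the replicate number as a block, the count of members at adjusted p was 1 between the regions and 0 elsewhere, and 9 of 152 pairs of member and comparison were at unadjusted p < 0.05. Of the 9 pairs without the block, 7 were shared, 2 of let-7d-5p in the ventral striatum were lost, and miR-98-5p in C(SvN) and let-7b-5p with housings pooled came in there. Libraries with the same number share only that number (median correlation of deviations amygdala 0.000680, ventral striatum 0.00178). With the library sets as a fixed block, 16 of 144 pairs (11.1%) were at unadjusted p < 0.05, against 4.33% over all names, and 0 at adjusted p; without it 8 were (5.56%, against 3.23%). For detection, depth limits only the 3p arms, of which those of miR-98 and let-7f lay mostly under 3 reads.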
